A study of Homo sapiens with 16 samples.

Results

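The genes described are 9 members of the KEAP1-NRF2 antioxidant response among 28278 gene symbols counted by RNA-seq: the transcription factor gene NFE2L2 (which encodes NRF2), its inhibitor KEAP1, and the target genes NQO1, HMOX1, GCLM, GCLC, SRXN1, TXNRD1 and OSGIN1. They were chosen by symbol, and all 9 had a row in each of 16 libraries and passed the filter on low counts in every comparison. The libraries came from SKMEL28 and A375, established lines of human melanoma with an activated BRAF kinase. SKMEL28 cells edited in MITF (the D2 line, labelled MITFKO; 3 libraries) had been edited again at TFE3 by CRISPR-Cas9 to give clones 13 and 3 of a double knockout, DKO (3 libraries each), and SKMEL28 wild type gave 1 library. A375, with unedited MITF, gave a TFE3KO line and wild type (3 libraries each). MITF and TFE3 are related transcription factors of pigment cells and lysosomes. Every SKMEL28 group other than wild type carries the MITF edit, so the DKO comparisons describe TFE3 editing on that background. The medium was RPMI for SKMEL28 but DMEM for A375, with serum in both. Each edited group stands for a single clone or line and its replicates were separate flasks, so p-values measure the spread between cultures and not between independently edited clones. The MITFKO libraries were shared by the comparisons of both clones.

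In unstressed cells KEAP1 holds NRF2 for ubiquitination by a CUL3 and RBX1 ligase, and NRF2 is degraded. Oxidants and electrophiles modify KEAP1, and NRF2 then accumulates, pairs with a small MAF protein and binds the antioxidant response element (ARE) of genes for glutathione synthesis, the thioredoxin system, quinone reduction and haem breakdown. Control of NRF2 is largely at the protein level, which transcript counts do not measure. BACH1 competes for the same elements and keeps HMOX1 repressed when haem is low. In melanoma the pathway is studied in connection with oxidative stress, drug resistance and dedifferentiation.

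The ARE core was looked for in the 250 bases upstream of each start site in a RefSeq promoter table (build GRCh38.p14), a build other than the hg19 named for the counts. The table held 11 windows of 8 of the genes, all but HMOX1. The letters TGACNNNGC, on either strand, occurred in 4 of the 11 windows, those of GCLM, TXNRD1 (both of its windows) and KEAP1, against 10.9% of all 35116 windows in the table. The E-box CACGTG, a core recognised by MITF and TFE3, occurred in 0 of the 11 windows, against 6.3% of all windows. So few windows cannot show a lack of this site, and other forms of it were not searched. The AP-1 site TGANTCA, which overlaps some forms of the ARE, occurred in 1 of the 11 windows, that of OSGIN1, against 6.6%. The upstream stretches of GCLM and TXNRD1 are shown because they held a match and fell, GCLM in DKO clone 13 and A375 TFE3KO, and TXNRD1 in the DKO clones. SRXN1 fell in the same comparisons as GCLM, and NQO1 and NFE2L2 fell in clone 13, but their windows held no ARE core match. KEAP1, which held a match, is not shown. The ARE core match is in capitals and each stretch is written 5′ to 3′ on the gene's strand.
GCLM, chr1:93909431-93909530, minus strand: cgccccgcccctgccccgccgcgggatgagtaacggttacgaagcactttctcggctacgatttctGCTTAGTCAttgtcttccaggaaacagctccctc
TXNRD1, chr12:104215634-104215733, plus strand: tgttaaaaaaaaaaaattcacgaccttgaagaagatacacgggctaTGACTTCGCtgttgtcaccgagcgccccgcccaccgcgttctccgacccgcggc
TXNRD1, second start site, chr12:104286884-104286983, plus strand: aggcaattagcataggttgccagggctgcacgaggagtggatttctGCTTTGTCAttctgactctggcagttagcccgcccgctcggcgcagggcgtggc
Counted from the start site, the matches span positions -34 to -26 in GCLM, and -99 to -91 and -102 to -94 at the TXNRD1 start sites. A match to these letters is a description of the window and no evidence of binding. Sequence outside the 250 bases was not searched, so a window without a match does not show that a gene lacks an ARE.

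Libraries held 17320855 to 31269126 counts. Levels are given as CPM, counts relative to a library's scaled total. TFE3, the edited factor, had 43.6, 48.1 and 49.3 CPM in DKO clone 13 and 8.36, 8.77 and 11.8 CPM in DKO clone 3, against 72.4, 74.3 and 79.7 CPM in MITFKO and 45.0 CPM in SKMEL28 wild type. In A375 it had 11.7, 12.2 and 10.9 CPM in TFE3KO, against 120, 114 and 125 CPM in wild type. Clone 13 was near the wild-type library in TFE3 mRNA. MITF had 850 to 969 CPM in DKO clone 13, 774 to 833 CPM in clone 3, 481 to 543 CPM in MITFKO and 539 CPM in SKMEL28 wild type, and 17.1 to 18.6 CPM in A375 TFE3KO against 30.9 to 38.9 CPM in A375 wild type. MITF counts therefore did not check the MITF edit, nor TFE3 counts the TFE3 edit of clone 13, and groups are called by their labels. The melanocyte gene SOX10 averaged 503 to 974 CPM in the 6 groups. TYR had 0 counts in all 6 A375 libraries and averaged 218 to 304 CPM in the SKMEL28 groups. MLANA had 739 CPM in SKMEL28 wild type and averaged 3.22 CPM in MITFKO, 3.38 CPM in clone 3 and 0.926 CPM in clone 13. PMEL had 10443 CPM in that wild type and averaged 3371 to 4458 CPM in the edited SKMEL28 groups. S100B had 968 CPM, against 543 to 939 CPM. In A375, PMEL and MLANA averaged at most 0.83 CPM and S100B 2.84 to 18.8 CPM. All 5 markers of leukocytes, endothelium and epithelium averaged at most 0.67 CPM in any group. Replicate 2 of DKO clone 13 stood apart: its counts differed from replicates 1 and 3 by a chi-square of 21.9 and 23.3 per degree of freedom, against 3.20 to 7.14 for every other replicate pair.

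A change was called at a Benjamini-Hochberg adjusted p under 0.05 from edgeR's quasi-likelihood test, and "rose" and "fell" are used of called changes only. In MITFKO against SKMEL28 wild type, 6 of the 9 genes rose and 1 fell, against 25.2% and 23.4% of all 14605 genes tested (48.6% called in all). Their median log2 change was 0.32, against 0.01 over all genes. In DKO clone 13 against MITFKO, 1 rose and 6 fell, against 20.5% and 20.2% of all genes (40.7% in all), with a median of -0.25 against -0.02. In DKO clone 3 against MITFKO, 1 rose and 3 fell, against 18.2% and 17.6% (35.9% in all), with a median of -0.12 against -0.005. In the mean of both clones 5 fell and the other 4 were not called, against 20.7% of all genes lower and 20.4% higher (41.1% in all). In A375 TFE3KO against wild type, 2 rose and 2 fell, against 21.3% and 22% of 14012 genes (43.3% in all), a share of the 9 close to that of all genes. The median there was 0.03, against 0.003 over all genes. Without regard to sign, the median change of the 9 was below that of all genes in MITFKO (0.44 against 0.50) and clone 13 (0.25 against 0.30). It was also below in clone 3 (0.19 against 0.27) and A375 (0.09 against 0.21). Between the clones it was above, at 0.35 against 0.23. HMOX1 was the gene that fell most in both DKO clones, and NQO1 the gene that rose most in A375 TFE3KO.

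**Figure D1:**
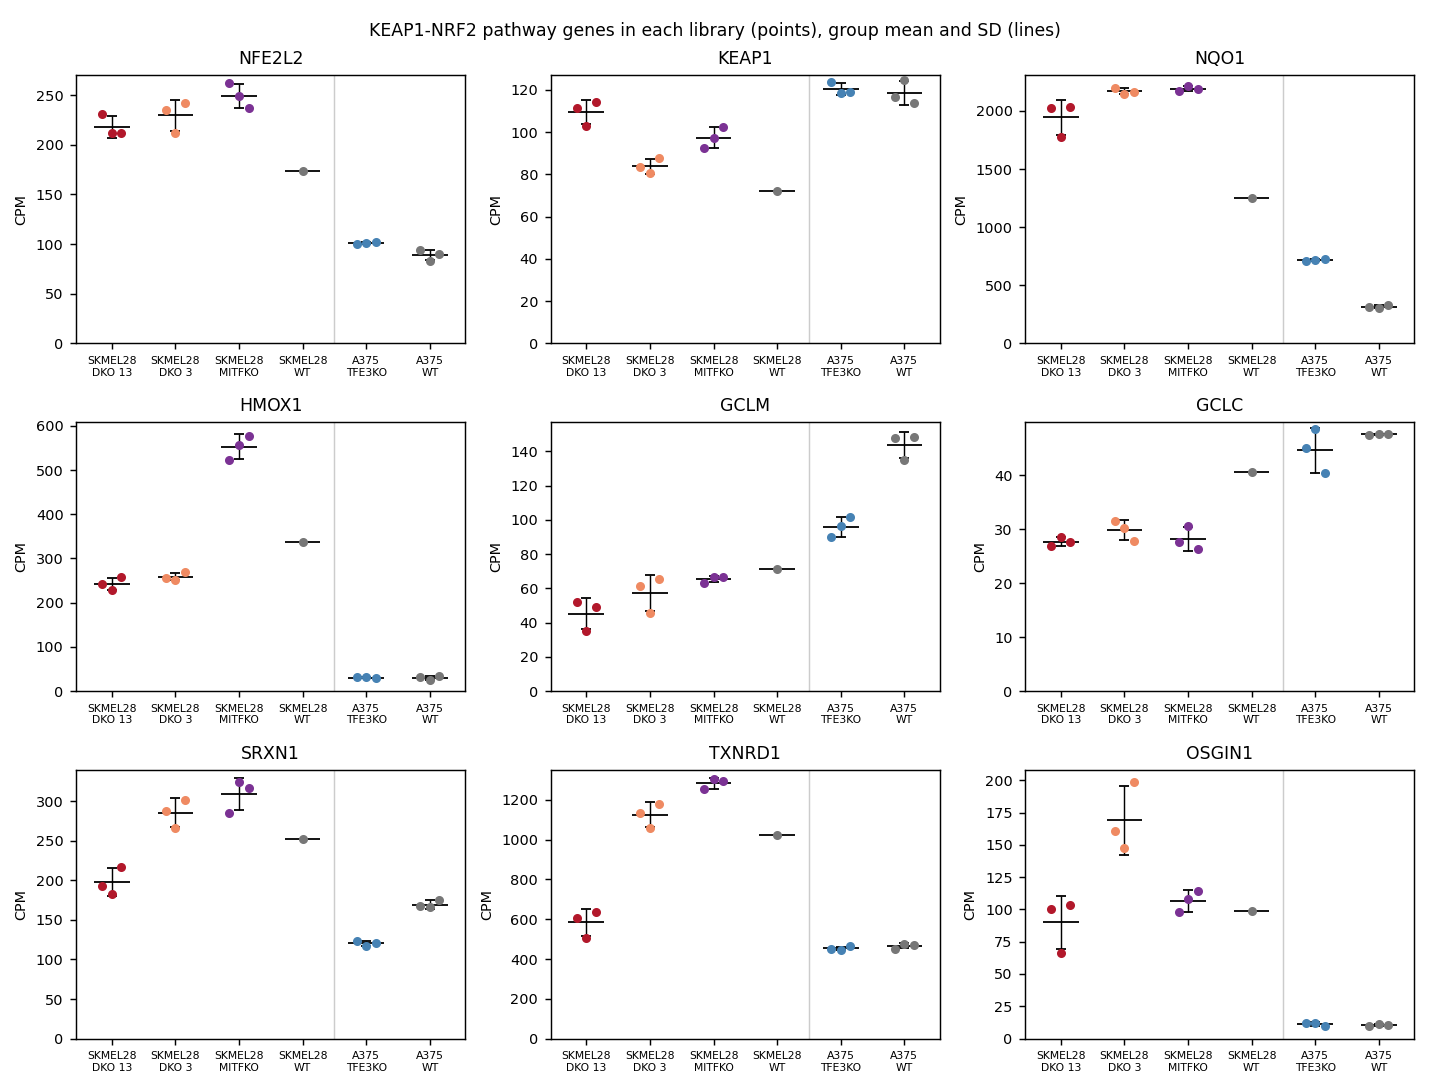
CPM (vertical axis, linear, from 0) of each of the 9 genes in each library, with 1 panel per gene, 1 point per library, and lines for the group mean and SD; SKMEL28 wild type is 1 library. HMOX1 stands at 522 to 578 CPM in MITFKO, above every other group, and NQO1 at 707 to 726 CPM in A375 TFE3KO, above the 308 to 328 CPM of A375 wild type.

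NFE2L2, on chromosome 2, had 231, 212 and 212 CPM in DKO clone 13, 235, 212 and 242 CPM in DKO clone 3, 262, 249 and 237 CPM in MITFKO and 174 CPM in SKMEL28 wild type. All 9 edited SKMEL28 libraries lay above the wild-type library, and the libraries of clone 3 overlapped those of clone 13 and of MITFKO. It rose 1.44-fold in MITFKO over wild type (log2 0.52, SE 0.0899, adjusted p = 4.45e-05) and fell slightly in clone 13 against MITFKO (log2 -0.19, SE 0.0618, adjusted p = 0.0159). The clone 13 call was lost without replicate 1 of MITFKO (adjusted p = 0.0898) or replicate 3 of clone 13 (0.0712). In clone 3 the log2 change of -0.12 did not pass (95% interval -0.24 to 0.0043, adjusted p = 0.152). In A375, NFE2L2 had 99.8, 102 and 102 CPM in TFE3KO, against 93.6, 83.1 and 90.1 CPM in wild type, without overlap. That rise was 1.14-fold (log2 0.19, SE 0.0496, adjusted p = 0.00164).

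KEAP1, the substrate adaptor on chromosome 19, had 111, 103 and 114 CPM in DKO clone 13, 83.7, 80.4 and 87.6 CPM in DKO clone 3, 92.5, 97.3 and 102 CPM in MITFKO and 72.0 CPM in SKMEL28 wild type. The clones lay on opposite sides of MITFKO, with no overlap. KEAP1 rose in MITFKO over wild type by a log2 change of 0.44 (SE 0.0939, adjusted p = 0.000516). Across genes, changes in that comparison increased with a gene's GC content (Spearman rho 0.224), and with this trend removed the KEAP1 change was 0.16. KEAP1 rose in clone 13 against MITFKO (log2 0.17, SE 0.0647, adjusted p = 0.0396) and fell in clone 3 (log2 -0.21, SE 0.0654, adjusted p = 0.0136), and clone 13 was 0.38 above clone 3 on the log2 scale (adjusted p = 0.000127). The clone 13 rise was lost without replicate 1 or 2 of MITFKO or replicate 1 or 3 of clone 13 (adjusted p = 0.0825 to 0.174) and in a fit of the compared groups alone (0.0533), and was 0.09 with the GC trend removed. The clone 3 fall was lost without replicate 3 of MITFKO (adjusted p = 0.0614) or replicate 2 of clone 3 (0.0644). In A375, KEAP1 had 124, 119 and 119 CPM in TFE3KO, against 117, 125 and 114 CPM in wild type. These groups overlapped, and the log2 change was 0.03 (95% interval -0.06 to 0.12, adjusted p = 0.635).

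NQO1, the quinone reductase on chromosome 16 that is widely used as a readout of NRF2, had the highest level per exon length of the 9 genes in SKMEL28 MITFKO (673 CPM per kb), SKMEL28 wild type (383 CPM per kb) and A375 wild type (97.4 CPM per kb). By library it had 2023, 1772 and 2036 CPM in DKO clone 13, 2195, 2146 and 2166 CPM in DKO clone 3, 2171, 2217 and 2184 CPM in MITFKO and 1247 CPM in SKMEL28 wild type. The edited SKMEL28 lines were thus all above the wild-type library, and clone 3 overlapped MITFKO. NQO1 rose 1.76-fold in MITFKO over wild type (log2 0.81, SE 0.0839, adjusted p = 3.8e-08). Its log2 change in clone 3 against MITFKO was -0.01 (95% interval -0.12 to 0.10, adjusted p = 0.883). In clone 13 it fell by 0.17 on the log2 scale (SE 0.0564, adjusted p = 0.018). Without the outlying replicate 2 the clone 13 change was -0.10 (adjusted p = 0.0429), and the call was lost without replicate 2 of MITFKO (adjusted p = 0.0734) and in a fit of the compared groups alone (0.0539).

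In A375, TFE3KO libraries had 707, 717 and 726 CPM (717 ± 9.39, SD, n = 3), against 314, 308 and 328 CPM in wild type (317 ± 10.1, SD, n = 3). NQO1 rose 2.27-fold in A375 TFE3KO (log2 1.18, SE 0.0315, adjusted p = 5.22e-35), in all 3 TFE3KO libraries. The effect of TFE3 editing in SKMEL28, taken as the mean of both DKO clones against MITFKO, was 1.26 lower on the log2 scale than that in A375 (SE 0.0614, adjusted p = 9.01e-16). In A375 TFE3KO, NQO1 stayed below the wild-type SKMEL28 library.

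HMOX1, the haem oxygenase on chromosome 22 that opens the haem ring and releases iron, was low in A375 and high in SKMEL28. It had 242, 229 and 257 CPM in DKO clone 13, 255, 252 and 268 CPM in DKO clone 3, 522, 558 and 578 CPM in MITFKO and 338 CPM in SKMEL28 wild type. MITFKO lay above the wild-type library and both clones below it, with the clones overlapping each other. HMOX1 rose 1.64-fold in MITFKO over wild type (log2 0.71, SE 0.085, adjusted p = 3.46e-07), and the change was 0.51 with the GC trend removed. It fell in clone 13, to 243 ± 14.1 CPM against 552 ± 28.3 CPM in MITFKO (SD, n = 3 each), a 2.28-fold lower level (log2 -1.19, SE 0.0587, adjusted p = 1.16e-12). Clone 3 averaged 259 ± 8.49 CPM (SD, n = 3), a log2 change of -1.09 from MITFKO (SE 0.0586, adjusted p = 7.74e-12). The clones differed from each other by -0.09 on the log2 scale (95% interval -0.21 to 0.02, adjusted p = 0.265). TFE3 mRNA in clone 13 was 4.89 times that in clone 3, which does not measure functional TFE3 in either clone. In A375, HMOX1 had 31.3, 30.9 and 29.02 CPM in TFE3KO, against 30.8, 25.5 and 33.6 CPM in wild type. The A375 groups overlapped, and the log2 change was 0.03 (95% interval -0.14 to 0.19, adjusted p = 0.837). The SKMEL28 effect was 1.16 lower than the A375 effect on the log2 scale (SE 0.0934, adjusted p = 1.4e-10).

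Glutamate-cysteine ligase, the first enzyme of glutathione synthesis, is made of a modifier subunit encoded by GCLM on chromosome 1 and a catalytic subunit encoded by GCLC on chromosome 6. GCLM had 51.8, 35.0 and 48.9 CPM in DKO clone 13, 61.4, 45.5 and 65.5 CPM in DKO clone 3, 63.3, 66.6 and 66.5 CPM in MITFKO and 71.3 CPM in SKMEL28 wild type. The edited lines all lay below the wild-type library, and replicate 2 was the lowest library in either clone. GCLM fell in clone 13 against MITFKO (log2 -0.54, SE 0.155, adjusted p = 0.018), by 0.37 without replicate 2 of clone 13 (adjusted p = 0.00308), and the call was lost without replicate 3 of MITFKO (adjusted p = 0.0522). The change was -0.19 in clone 3 (95% interval -0.49 to 0.11, adjusted p = 0.387), or -0.04 without replicate 2 of clone 3, and -0.12 in MITFKO over wild type (95% interval -0.54 to 0.29, adjusted p = 0.673). In A375, GCLM had 90.1, 96.2 and 102 CPM in TFE3KO, against 148, 135 and 149 CPM in wild type. All TFE3KO libraries lay below all wild-type libraries, and GCLM fell by 0.59 on the log2 scale (SE 0.0479, adjusted p = 4.75e-15), while NQO1 rose in the same libraries.

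GCLC had the lowest level per exon length of the 9 genes in SKMEL28 wild type and MITFKO (4.70 and 3.27 CPM per kb). Its libraries ran from 26.9 to 28.7 CPM in DKO clone 13, from 27.8 to 31.5 CPM in DKO clone 3 and from 26.4 to 30.7 CPM in MITFKO, all overlapping, with 40.7 CPM in SKMEL28 wild type. GCLC fell in MITFKO against wild type by 0.52 on the log2 scale (SE 0.125, adjusted p = 0.0013), the only member of the 9 to fall there. Its change was -0.02 in clone 13 (95% interval -0.21 to 0.16, adjusted p = 0.862) and 0.08 in clone 3 (95% interval -0.10 to 0.27, adjusted p = 0.529). In A375 it ran from 40.4 to 48.6 CPM in TFE3KO, around the 47.6 to 47.7 CPM of wild type (log2 -0.09, 95% interval -0.22 to 0.04, adjusted p = 0.301).

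The number of GCLM reads per GCLC read, which does not depend on library scaling, was 1.92, 1.22 and 1.77 in DKO clone 13, 1.95, 1.50 and 2.35 in DKO clone 3, 2.29, 2.17 and 2.52 in MITFKO and 1.75 in SKMEL28 wild type. Clone 13 lay wholly below MITFKO and clone 3 overlapped it. In A375 the ratio was 2.00, 1.98 and 2.52 in TFE3KO (2.17 ± 0.305, SD, n = 3), against 3.11, 2.84 and 3.11 in wild type (3.02 ± 0.158, SD, n = 3). The ratio is not corrected for transcript length and was not tested.

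**Figure D2:**
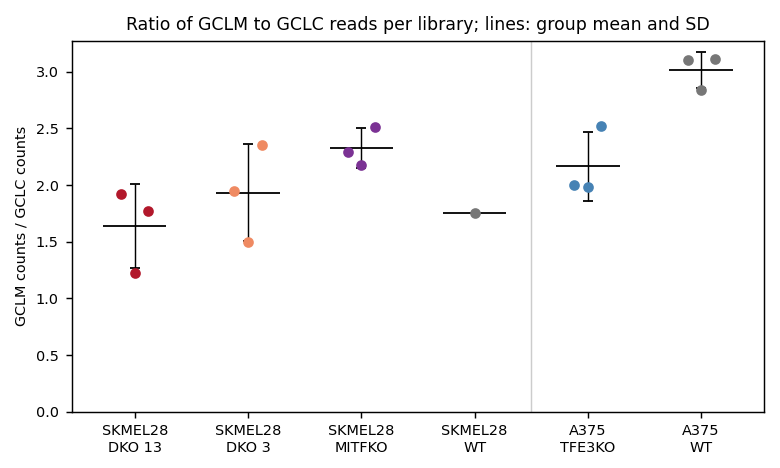
GCLM counts divided by GCLC counts (vertical axis, linear, from 0) in each library (points), with the group mean and SD (lines). The A375 TFE3KO libraries, at 1.98 to 2.52, lie below the A375 wild-type libraries, at 2.84 to 3.11.

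TXNRD1, on chromosome 12, encodes cytosolic thioredoxin reductase, which returns thioredoxin to its reduced form with NADPH. It had 608, 506 and 638 CPM in DKO clone 13, 1135, 1059 and 1182 CPM in DKO clone 3, 1253, 1303 and 1293 CPM in MITFKO and 1025 CPM in SKMEL28 wild type. Clone 13 lay below every other SKMEL28 library. TXNRD1 rose in MITFKO over wild type (log2 0.32, SE 0.0992, adjusted p = 0.00994). It fell 2.20-fold in clone 13 against MITFKO (log2 -1.14, SE 0.0699, adjusted p = 9.26e-11), and by 1.04 on the log2 scale without replicate 2 of clone 13 (adjusted p = 5.47e-22). In clone 3 it fell by 0.19 (SE 0.0689, adjusted p = 0.038), a call that was lost without any 1 of the 3 MITFKO libraries or replicate 1 or 2 of clone 3 (adjusted p = 0.0578 to 0.165). Clone 13 was below clone 3 by a log2 difference of -0.95 (SE 0.0697, adjusted p = 3.1e-09). In A375, TXNRD1 had 452, 446 and 464 CPM in TFE3KO, against 453, 477 and 473 CPM in wild type (log2 -0.04, 95% interval -0.10 to 0.02, adjusted p = 0.31). The effect in SKMEL28 was 0.61 lower than in A375 (SE 0.0777, adjusted p = 4.9e-07).

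SRXN1, on chromosome 20, encodes sulfiredoxin, which repairs overoxidised peroxiredoxins. Of its exon bases, 85.0% are shared with another annotated locus of the same strand that the count table does not list, so how those reads were assigned is uncertain. Overlap with other annotated loci on either strand covered 21.7% of the exon bases of NFE2L2, 17.7% of NQO1 (all on the opposite strand), 13.9% of OSGIN1 and 6.2% of GCLC. It had 193, 182 and 217 CPM in DKO clone 13, 288, 266 and 302 CPM in DKO clone 3, 286, 325 and 317 CPM in MITFKO and 252 CPM in SKMEL28 wild type. As for TXNRD1, clone 13 lay below every other SKMEL28 library, while clone 3 overlapped MITFKO. SRXN1 fell in clone 13 against MITFKO (log2 -0.65, SE 0.0684, adjusted p = 1.46e-07), and clone 13 was below clone 3 by -0.53 on the log2 scale (adjusted p = 4.94e-06). In clone 3 the change was -0.11 (95% interval -0.25 to 0.02, adjusted p = 0.207). It rose in MITFKO over wild type (log2 0.30, SE 0.0974, adjusted p = 0.0154), a call lost without replicate 2 of MITFKO (adjusted p = 0.0611). In A375, SRXN1 had 123, 117 and 121 CPM in TFE3KO, against 167, 166 and 176 CPM in wild type. The A375 groups did not overlap, and SRXN1 fell there by 0.49 on the log2 scale (SE 0.0415, adjusted p = 1.64e-14).

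OSGIN1, on chromosome 16, encodes an oxidative stress induced growth inhibitor. It had 100, 66.4 and 103 CPM in DKO clone 13, 161, 147 and 199 CPM in DKO clone 3, 97.6, 108 and 114 CPM in MITFKO and 98.5 CPM in SKMEL28 wild type. Clone 3 was above all other SKMEL28 libraries. OSGIN1 rose in clone 3 against MITFKO (log2 0.67, SE 0.188, adjusted p = 0.0309), but the call was lost without any 1 of the 3 MITFKO libraries or replicate 1 or 3 of clone 3 (adjusted p = 0.0536 to 0.0994) and when no filter on low counts was used (0.0592). Clone 13 was below clone 3 by a log2 difference of -0.91 (SE 0.19, adjusted p = 0.0117), and its change from MITFKO was -0.25 (95% interval -0.62 to 0.13, adjusted p = 0.358). Without replicate 2 of clone 13 that change was -0.06, and the mean of both clones, at 0.21 with all libraries (adjusted p = 0.366), was 0.30 and called (adjusted p = 0.0164). In MITFKO over wild type the log2 change was 0.11 (95% interval -0.41 to 0.64, adjusted p = 0.76), and -0.27 with the GC trend removed. In A375 its level was far lower, with 11.7, 12.3 and 9.51 CPM in TFE3KO, against 9.83, 11.5 and 10.4 CPM in wild type (log2 0.09, 95% interval -0.16 to 0.34, adjusted p = 0.614).

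**Figure D3:**
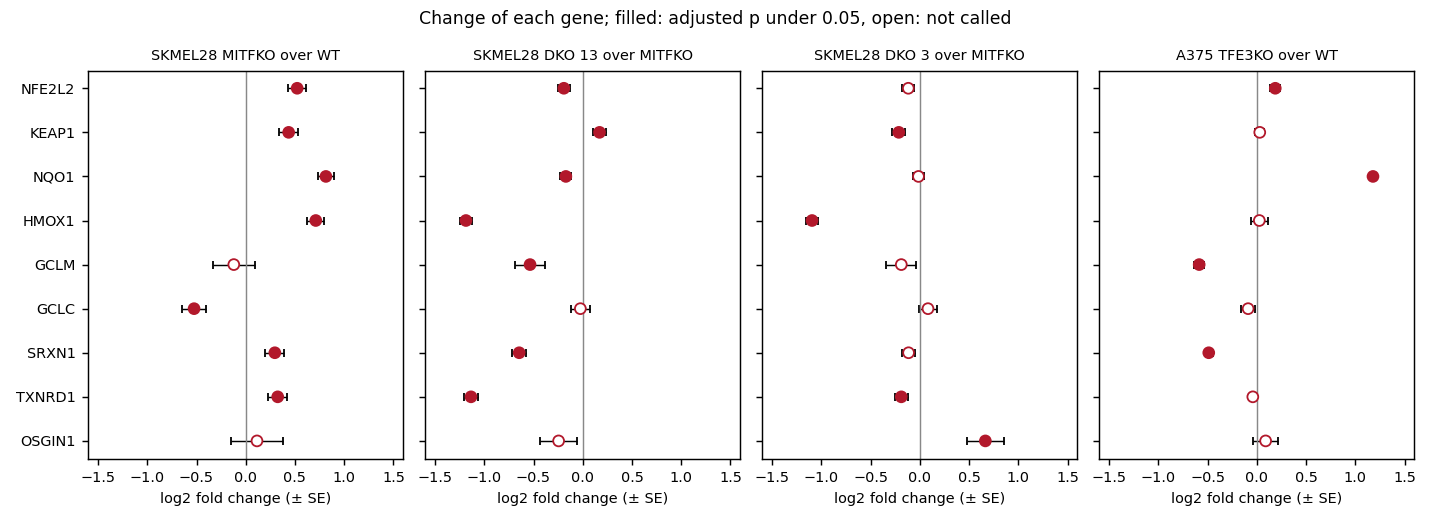
Log2 fold change with its SE (horizontal axis) of the 9 genes in 4 comparisons, filled where the adjusted p is under 0.05. HMOX1 lies at -1.19 in clone 13 and -1.09 in clone 3, TXNRD1 at -1.14 in clone 13 and -0.19 in clone 3, and NQO1 at 1.18 in A375.

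Between the DKO clones themselves, clone 13 was higher than clone 3 for 1 of the 9 genes (KEAP1) and lower for 4 (TXNRD1, OSGIN1, SRXN1 and NQO1), against 14.3% and 13.4% of all genes (27.6% called in all). The GCLM difference of -0.35 was not called (adjusted p = 0.131), but it passed with DESeq2's test (adjusted p = 0.0393), with no filter on low counts (0.00116) and without replicate 2 of clone 3 (0.00914) or of both clones (0.00107), and was -0.19 without replicate 2 of clone 13 (0.189). The NQO1 difference of -0.16 (adjusted p = 0.0401) was -0.09 without replicate 2 of clone 13 (adjusted p = 0.114), and it also lost its call without any 1 of the MITFKO or clone 3 libraries (0.0665 to 0.164), with DESeq2's size factors (0.055) and in a fit of the compared groups alone (0.113). Between the cell lines, the TFE3 effect differed for 4 of the 9 genes, all lower in SKMEL28 than in A375 (NQO1, HMOX1, TXNRD1 and NFE2L2, the last by -0.33, SE 0.0764, adjusted p = 0.00094), against 37.7% of 15093 genes called in either direction and 19.3% lower. For GCLM the difference was 0.23 (95% interval -0.11 to 0.57, adjusted p = 0.332). It became 0.32 without replicate 2 of clone 13 and then passed the threshold (adjusted p = 0.0322). For SRXN1 it was 0.12 (95% interval -0.04 to 0.28, adjusted p = 0.265), but 0.18 and called without replicate 2 of both DKO clones (adjusted p = 0.0157). With all libraries, the SRXN1 fall in A375 was thus not shown to differ from the clone mean in SKMEL28. That mean joins -0.65 in clone 13 and -0.11 in clone 3. In bulk RNA a lower level in every cell and fewer expressing cells cannot be told apart.

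A wider list of 46 pathway genes, chosen by role with earlier results of these data known, was read alongside. In MITFKO against wild type 25 of 44 tested rose and 7 fell, against 25.2% and 23.4% of all genes (48.6% called in all). Among the regulators 5 of 8 rose and 1 fell: MAFF and MAFG, small MAF partners of NRF2, rose by 1.96 (SE 0.104) and 1.15 (SE 0.0855) on the log2 scale, and NFE2L1, a related factor, by 1.34 (SE 0.0902). MAFF had 418 to 467 CPM in MITFKO, against 115 CPM in wild type, with adjusted p = 7.59e-13. BACH1, the competitor of NRF2, averaged 67.3 CPM in MITFKO, against 33.6 CPM in the wild-type library. Among the glutathione genes 4 of 9 rose and 2 fell, led by CHAC1, which degrades glutathione, at 3.15 (SE 0.2), and SLC7A11, the cystine importer, at 2.12 (SE 0.189). Both are also known targets of the stress factor ATF4. ATF4 mRNA averaged 652 CPM in MITFKO, 157 CPM in wild type, 390 CPM in clone 13 and 378 CPM in clone 3. In A375 it averaged 403 CPM in TFE3KO and 301 CPM in wild type. A link of ATF4 to these genes was not tested. Of 4 thioredoxin genes 2 rose and 1 fell: TXNIP, an inhibitor of thioredoxin, rose by 1.93 (SE 0.227), and the peroxidase PRDX1 fell by 1.49 (SE 0.0792). Of 6 NADPH genes 2 rose and 1 fell, a share near that of all genes, led by malic enzyme ME1 at 1.65 (SE 0.0966). Of 5 iron and haem genes 3 rose and 1 fell, with the ferritin light chain FTL at 0.60 (SE 0.104). Of 12 detoxification genes 9 rose and 1 fell, led by the aldo-keto reductase AKR1C1 at 4.33 (SE 0.332), from 13 counts in the wild-type library. AKR1C1 and AKR1C3, FTL, FTH1 and PRDX1 have near-identical relatives or processed copies, and their counts are uncertain.

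In DKO clone 13 against MITFKO, 18 of 44 rose and 13 fell, against 20.5% and 20.2% of all genes, and in clone 3, 13 rose and 12 fell, against 18.2% and 17.6%. All 8 regulators were called in clone 13, 3 higher and 5 lower, and 1 rose and 4 fell in clone 3. MAFF fell to 185, 211 and 192 CPM in clone 13 and 204, 215 and 186 CPM in clone 3, against 418, 467 and 453 CPM in MITFKO. That put both clones between MITFKO and the wild-type library, with log2 changes of -1.18 (SE 0.0658, adjusted p = 7.6e-12) in clone 13 and -1.14 (SE 0.0658, adjusted p = 2.01e-11) in clone 3. Of the ligase parts, CUL3 fell by 0.55 in clone 13 and by 0.46 in clone 3, while RBX1 rose by 0.55 in clone 13 and 0.49 in clone 3. SLC7A11 had 161, 125 and 173 CPM in clone 13 and 269, 226 and 281 CPM in clone 3, against 489, 476 and 435 CPM in MITFKO, without overlap between any of the 3 groups. It fell by 1.61 (SE 0.12, adjusted p = 2.23e-06) in clone 13 and by 0.85 (SE 0.117, adjusted p = 0.000272) in clone 3. CHAC1 fell by 1.36 in clone 13 and by 0.77 in clone 3. The NADPH genes went mainly the other way: 5 of 6 rose in clone 13 and 3 in clone 3, among them the transketolase gene TKT (0.59 in clone 13 and 0.48 in clone 3), but isocitrate dehydrogenase IDH1 fell to 144 to 159 CPM in clone 13 and 148 to 153 CPM in clone 3, against 399 to 434 CPM in MITFKO (log2 -1.46, SE 0.0573, in clone 13 and -1.45, SE 0.0574, in clone 3). Among the iron and haem genes FTL fell in clone 3 (log2 -0.32, SE 0.0714).

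In A375 TFE3KO, 12 of 43 listed genes rose and 19 fell, against 21.3% and 22% of all genes (43.3% in all). Of the 8 regulators 5 fell and the other 3 were not called. SQSTM1, which encodes p62, a KEAP1-binding autophagy receptor, had 479, 497 and 475 CPM in TFE3KO, against 871, 863 and 866 CPM in wild type. The groups were far apart relative to their spread, and SQSTM1 fell by 0.84 on the log2 scale (SE 0.0296, adjusted p = 9.69e-30). SQSTM1 was also lower in the DKO clones, with 1742 to 1832 CPM in clone 13 and 2084 to 2146 CPM in clone 3, against 2393 to 2506 CPM in MITFKO. The SKMEL28 effect was 0.51 higher than that in A375 (SE 0.054, adjusted p = 1.38e-08). In A375 TFE3KO, 6 of 9 glutathione genes rose and 2 fell. SLC7A11 had 114, 112 and 111 CPM in TFE3KO, against 49.1, 55.5 and 51.6 CPM in wild type, a rise of 1.11 (SE 0.0531, adjusted p = 3.51e-24), and CHAC1 rose by 1.69 (SE 0.132, adjusted p = 8.32e-16). Both genes had fallen in the DKO clones, and the difference between lines was -2.33 for SLC7A11 (SE 0.134, adjusted p = 1.29e-09) and -2.75 for CHAC1 (SE 0.165, adjusted p = 1.03e-13). MGST1, a membrane glutathione transferase, fell to 34.5, 39.2 and 34.8 CPM in TFE3KO, against 125, 141 and 127 CPM in wild type. It also fell in clone 13 (log2 -0.57, SE 0.0873, adjusted p = 1.71e-05) and clone 3 (log2 -0.61, SE 0.0879, adjusted p = 1.19e-05). The MGST1 effect in SKMEL28 was 1.27 higher than that in A375 (SE 0.104, adjusted p = 8.16e-11). In A375 TFE3KO, FTH1, the ferritin heavy chain, fell by 0.78 (SE 0.0328) on the log2 scale. Of 11 detoxification genes 1 rose and 7 fell, with AKR1B1 at -0.92 (SE 0.0387) and AKR1C1 at -3.43 (SE 0.305), the last with 7 to 16 counts in TFE3KO libraries, against 111 to 133 in wild type.

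**Figure D4:**
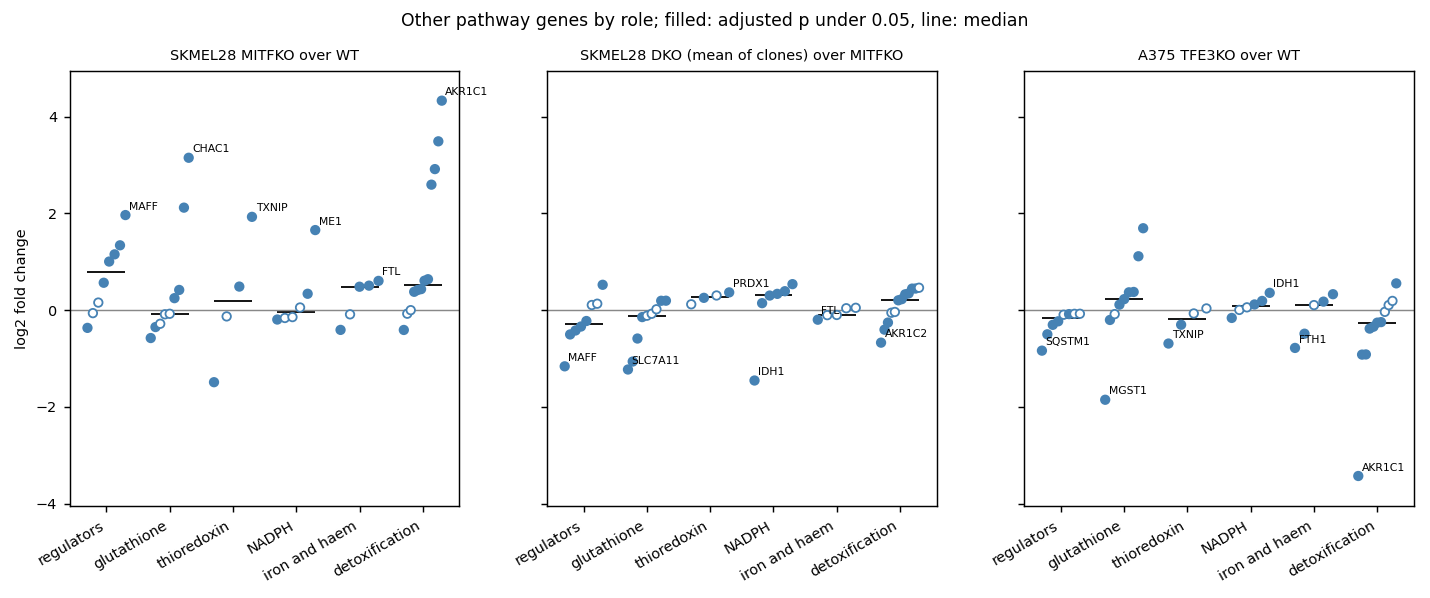
Log2 fold change (vertical axis) of the listed pathway genes by role in 3 comparisons, with filled points for an adjusted p under 0.05 and a line at the median of each role. The regulators lie mostly above 0 in MITFKO over wild type, with MAFF at 1.96, and MAFF at -1.16 is their lowest in the mean of the DKO clones over MITFKO.

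Genes with the most similar pattern were sought for 3 members by the root mean square difference of centred log2 CPM (pseudocount 0.5) over the 16 libraries, among 13117 genes with a mean of at least 1 CPM. For NFE2L2 they included MTMR3 at 0.12 and PMS2 at 0.12, against an SD of 0.62 of NFE2L2 itself over the libraries. For NQO1 they were SLFN5 at 0.15, PAG1 at 0.17 and SLC47A1 at 0.18, against an SD of 1.08. For HMOX1 they were WIPI1 at 0.28, ZNF382 at 0.30 and KAZN at 0.30, against an SD of 1.71. These distances are dominated by the difference between the cell lines and were not tested.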

How the data were processed

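The 16 deposited tables hold raw read counts per gene symbol, made by the authors; the submitters' processing notes name STAR, featureCounts, DESeq2 and hg19, without versions. The sources used here do not state the annotation, the strand setting or the treatment of multiply mapped reads, so genes that share exon bases are uncertain.

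Tests used edgeR 4.0.16 under R 4.3.3 (filterByExpr by group, TMM scaling, robust quasi-likelihood F-test): 10 SKMEL28 libraries in one model, 6 A375 libraries in another, and 15 without SKMEL28 wild type for the difference between lines. The spread of the single SKMEL28 wild-type library was taken from the other groups. P-values were Benjamini-Hochberg adjusted over all genes tested, with a threshold of 0.05. Intervals are 1.96 SE on either side (95%). CPM used TMM factors over all 16 libraries. Lengths came from GENCODE v29 exons and promoters from RefSeq GRCh38.p14. Scripts were tested on simulated data.

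The 9 genes and the lists were chosen with earlier results of these data known. Named were these 9, TFE3, MITF, at most 3 called pathway genes with the largest change per role and comparison, and the 3 nearest genes of NFE2L2, NQO1 and HMOX1, of which 1 is not reported here. Alternatives were DESeq2 1.42.0 and its size factors, no filter, the compared groups alone, each library left out, a replicate block and, added after seeing the data, removal of a GC trend and of replicate 2 of both DKO clones. No 2 libraries of a group agreed within sampling noise. Between the DKO clones, deviations of same-number replicates correlated at 0.105, 0.235 and 0.0748, and those of different numbers at -0.177 to 0.0898. Replicates of both clones thus shared some variation by number, which the main fit did not block. In the other group pairs, same-number correlations ran from -0.0711 to 0.0301.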

Additional observations from a re-analysis of the deposited data

Results flagged for a closer look

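In 4 of the 9 genes the effect of TFE3 editing differed between the cell lines by an interaction test (edgeR, joint model of 15 libraries, SKMEL28 as the mean of both DKO clones against MITFKO, minus A375 TFE3KO against wild type), a share near that of all genes, of which 37.7% were called. The log2 difference was -1.26 for NQO1 (adjusted p = 9.01e-16), which rose in A375 and had a log2 change of -0.09 in SKMEL28. It was -1.16 for HMOX1 (adjusted p = 1.4e-10), which fell in all 6 DKO libraries and changed by 0.03 in A375. For TXNRD1 it was -0.61 (adjusted p = 4.9e-07), with the clones at -1.14 (clone 13) and -0.19 (clone 3), and for NFE2L2 it was -0.33 (adjusted p = 0.00094). The lines also differ in medium, in MITF editing and in MITF level, which cannot be told apart from the line.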

How the results depend on the processing

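Over 981 recomputed log2 changes of the 9 genes, 920 kept their direction and side of the threshold, 42 lost and 10 gained a call, and 9 changed sign, none of these from a called value. GC removal is counted apart. The sign changes were GCLC in clone 13 against MITFKO (range without single libraries -0.0714 to 0.0369), KEAP1 (-0.0617 to 0.0109) and GCLC (-0.0200 to 0.0884) in the mean of both clones, KEAP1 (-0.000801 to 0.0654) and HMOX1 (-0.0814 to 0.113) in A375, and, without replicate 2 of both DKO clones, KEAP1 in the mean of the clones (0.0165) and in the difference between lines (0.00635). Leaving out single libraries gave 1 to 4 called genes of 9 in clone 3 (4 with all) and 3 to 6 in the mean of the clones (5 with all), where NFE2L2 and GCLM were the calls lost. With a replicate block, 7, 4, 5 and 6 of the 9 were called in clone 13, clone 3, their mean and clone 13 against clone 3, where GCLM became called (adjusted p = 0.0134), and 4 each in A375 and the difference between lines. No paired analysis was possible for MITFKO against wild type because they share no replicate number. GC removal moved 7 of 63 changes by more than their SE and changed the sign of 3 that were not called: OSGIN1 (-0.27) and GCLM (0.06) in MITFKO over wild type, and GCLC in clone 13 (0.03). Counts per library were low for OSGIN1 (175 to 382) and HMOX1 (534 to 1020) in A375 and for GCLC in the edited SKMEL28 lines (465 to 593). How far this limits their precision was not tested.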

Other observations

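Clone 13 and clone 3 of the DKO also differed in listed pathway genes. The cystine importer SLC7A11 was lower in clone 13 by -0.76 on the log2 scale (SE 0.119, adjusted p = 0.000965), its partner chain SLC3A2 by -0.41 (SE 0.0516, adjusted p = 2.97e-06) and TRIM16L by -1.02 (SE 0.111, adjusted p = 5.15e-07). ME1, malic enzyme, was higher in clone 13 by 0.70 (SE 0.0604, adjusted p = 1.79e-08), as was the thioredoxin inhibitor TXNIP by 0.79 (SE 0.139, adjusted p = 0.0028). Of 8 regulators 2 were higher and 1 lower in clone 13, led by BACH1 at 0.45 (SE 0.0972, adjusted p = 0.00206). BACH1 had 103 CPM in the outlying replicate 2 of clone 13, against 78.37 and 76.25 CPM in replicates 1 and 3. In all, 9 of 44 listed genes were higher and 8 lower in clone 13, against 14.3% and 13.4% of all genes.

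For 7 of the 9 genes (all but NFE2L2 and GCLC), replicate 2 was the lowest library of the group in both DKO clones, against 19.1% of 14605 genes. This was noticed in the data, and its cause was not tested.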
